A study of Mus musculus with 4 samples.

Results

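The transporters that hepatocytes use for bile constituents and drugs were followed in liver RNA through 10 genes: Abcb11, Abcg5, Abcg8, Abcb4, Atp8b1, Abcc2, Abcb1a, Abcc3, Abcc4 and Slc10a1. They were taken by symbol, each matched 1 row, and they make up 10 of the 54149 genes in the deposited table. The 8 with an Abc symbol are ATP-driven exporters, Slc10a1 is an uptake carrier and Atp8b1 is a lipid flippase, so the name exporter fits 8 of the 10. The livers came from adult females, strain C57BL/6 x 129S4/SvJae: 2 libraries were of a liver-specific Utx knockout and 2 of controls labelled WT, matched for age and sex. Every library was a pool of RNA from 2 mice. Both groups had been fasted for 16 h and then injected intraperitoneally with acetaminophen (APAP) at 300 mg/kg; overdoses of this drug damage hepatocytes. Livers without the drug are not analysed here. The sources used here give neither the Cre driver behind the deletion nor the time from dose to collection. Utx, listed as Kdm6a, encodes a demethylase of lysine 27 of histone H3.

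Bile forms when hepatocytes pump solutes across their apical membrane into the canaliculi, the fine channels between neighbouring cells. Bile salts, phospholipid and sterol leave through separate pumps, and phospholipid shields the membrane from bile salts. Conjugated drugs, the glucuronide of acetaminophen among them, leave either at the canaliculus or across the basolateral membrane into blood, from which bile salts are also taken back up. Several of these genes are known targets of nuclear receptors that sense bile acids, sterols or foreign compounds.

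Between 16330451 and 17804730 reads were recovered per library. Kdm6a stood at 2.20 and 2.12 FPKM (fragments scaled by gene length and library size) in the knockout pools and at 3.40 and 3.85 FPKM in the WT pools. It was lower in both knockout pools but did not pass the test (limma adjusted p = 0.0715), and FPKM summed over a gene does not resolve single exons. Reads of mitochondrial ribosomal RNA made up 0.108% and 0.158% of the knockout libraries and 0.244% and 0.251% of the WT libraries. Their part in the results below was not tested. The liver label was borne out by Alb, with 5.4% to 6.93% of the reads of each library.

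Transcripts of 3 genes of canalicular pumps were higher in the knockout livers. These were Abcb11, the bile salt export pump, and Abcg5 and Abcg8, which together form 1 canalicular sterol exporter. Abcb1a, a canalicular pump of hydrophobic drugs, was lower, at 0.315 of its WT level. The other 6 genes did not pass the test, although the knockout pools both lay above both WT pools for 5 of them. Differences were tested with limma on log2(FPKM + 0.5) over the 11900 genes whose mean reached 1 FPKM, all 10 transporters among them. A gene counts as changed at a Benjamini-Hochberg adjusted p under 0.05. By this rule 3 of the 10 rose, where 1.60% of all tested genes did, and 1 of the 10 fell, where 3.14% did (4.74% in either direction). With FPKM rescaled to equal summed reads, 211 genes of the whole table rose and 255 fell, against 190 and 374 as deposited, and the same 4 transporters passed. The knockout pools both lay above both WT pools for 8 of the 10, against 31.6% of tested genes, and both below for 1, against 29.9%. The groups thus did not overlap for 9 of the 10, where they did not for 61.5% of tested genes. The median log2 fold change was 0.57 over the 10 transporters and 0.01 over all tested genes. The transporters and the lists below were chosen with earlier results of these data known. Their counts beside those of all genes are therefore not independent evidence. The libraries hold whole liver, so fewer cells of a type and less RNA per cell cannot be told apart. Each p-value rests on the spread between 2 pools per group, each of 2 mice.

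**Figure D1:**
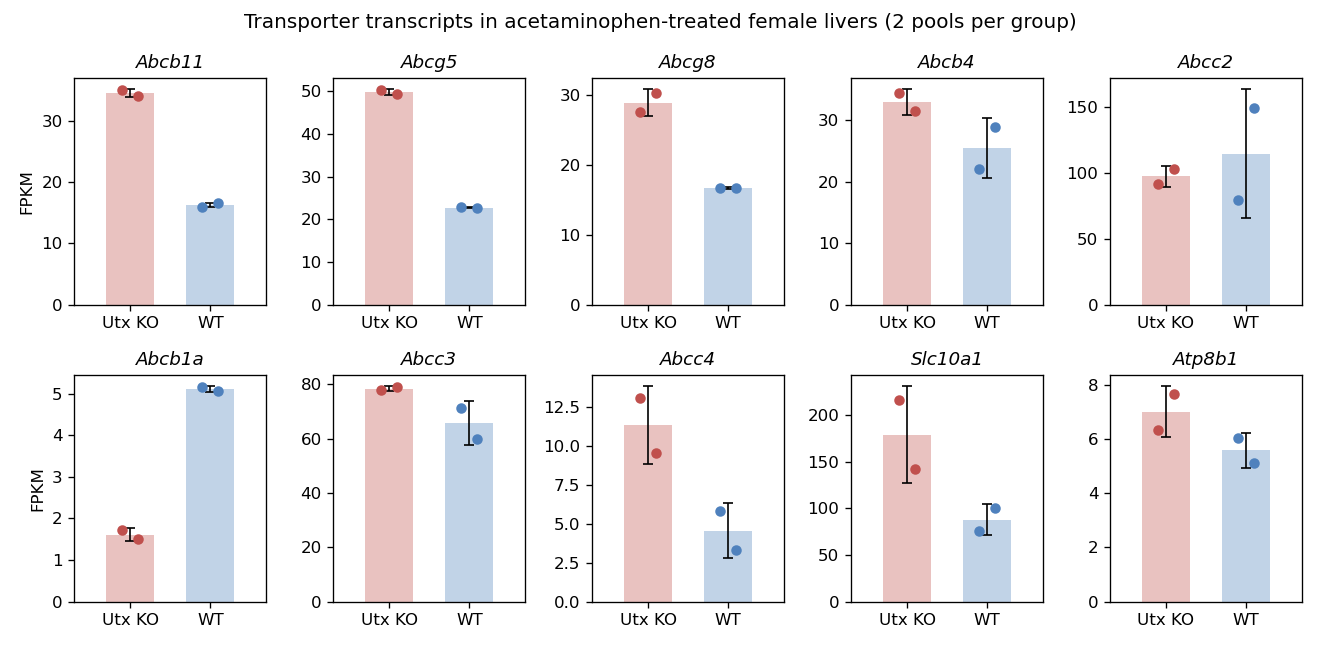
FPKM of each transporter gene in the 2 Utx knockout pools (red, left) and the 2 WT pools (blue, right); points are pools, bars are means and error bars are SD, on linear axes from 0. Abcb11, Abcg5 and Abcg8 lie close together within each group and higher in the knockout, Abcb1a is lower in the knockout, and the WT pools of Abcc2 lie far apart at 79.7 and 149 FPKM.

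Abcb11 (ENSMUSG00000027048, GRCm38 chromosome 2, 69238282 to 69342616, minus strand) is the ATP-driven pump that moves conjugated bile salts into the canaliculus. It was measured at 35.0 and 34.1 FPKM in the knockout pools and at 16.0 and 16.5 FPKM in the WT pools, on 3207, 3006, 1389 and 1337 reads in that order. The groups did not overlap, and the pools of a group differed by 1.03-fold in the knockout and 1.04-fold in WT. Abcb11 rose by a log2 fold change of 1.06 (SE 0.10, 95% confidence interval 0.80 to 1.33, limma adjusted p = 0.0279), which puts the knockout mean 2.12-fold above the WT mean. Only 2.29% of tested genes had a larger log2 fold change. Leaving out 1 library gave a log2 fold change of 1.04 to 1.09. Its call was then lost, in fits with 1 residual degree of freedom that lost most calls of the whole table. Over all 17 alternatives its adjusted p ran from 0.0116 to 0.103. Of its exonic bases, 3.01% are shared with the plus-strand genes Gm13613 and Gm13614, whose reads could not be told apart without strand.

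The farnesoid X receptor (Nr1h4) senses bile acids and is known to activate Abcb11 through an inverted repeat of a nuclear receptor site. The bases before the Abcb11 start site are shown because the gene is the bile salt pump among those that rose (RefSeq, GRCm38.p6, chr2:69342617-69342866, minus strand, 250 bases, 5′ to 3′). Capitals mark a match to AGGNCA, any 1 base and TGACCT in a row, an inverted repeat searched on both strands.
Abcb11: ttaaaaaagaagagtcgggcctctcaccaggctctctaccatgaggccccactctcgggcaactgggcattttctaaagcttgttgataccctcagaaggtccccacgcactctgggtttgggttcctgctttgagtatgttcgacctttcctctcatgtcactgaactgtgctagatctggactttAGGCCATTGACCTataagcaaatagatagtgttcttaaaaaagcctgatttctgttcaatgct
The match begins 63 bases before the start site and ends in TGACCT, which reads AGGTCA on the opposite strand. This motif, with 1 base left open, was written after the sequence was seen, and 12 of the 32851 RefSeq promoter windows hold it (0.0365%, each window 250 bases before to 50 after a start). The perfect repeat, with AGGTCA as its first site, was in 0 of the 11 windows of the transporters and in 3 of all windows. A match describes the letters and does not show that a factor binds there.

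Abcg5 and Abcg8 encode the partners of a heterodimer that secretes cholesterol and plant sterols into bile, and they stand head to head on chromosome 17. Abcg5 (ENSMUSG00000040505, 84658234 to 84683011, minus strand) was at 50.3 and 49.4 FPKM in the knockout pools and at 22.8 and 22.7 FPKM in the WT pools. Abcg8 (ENSMUSG00000024254, 84676302 to 84700333, plus strand) was at 27.5 and 30.2 FPKM in the knockout pools and at 16.7 and 16.6 FPKM in the WT pools. For both genes every knockout pool lay above every WT pool, and the 2 WT pools were nearly equal. The WT pools of 99.3% of tested genes were farther apart than those of Abcg5. Abcg5 rose by a log2 fold change of 1.11 (SE 0.10, 95% confidence interval 0.85 to 1.38, limma adjusted p = 0.0258) and Abcg8 by 0.77 (SE 0.11, 0.49 to 1.05, adjusted p = 0.0408). Leaving out a library ended both calls, in fits with 1 residual degree of freedom that lost most calls of the whole table. The log2 fold change was then 1.10 to 1.13 for Abcg5 and 0.71 to 0.84 for Abcg8. With the replicate number as a block Abcg8 had an adjusted p of 0.0815 and with limma without a trend one of 0.0597, and over all alternatives it ran from 0.0207 to 0.124 for Abcg8 and from 0.0102 to 0.103 for Abcg5. The annotated exons of the pair share 82 bases on opposite strands, 3.02% of those of Abcg5 and 2.19% of those of Abcg8, and reads there could belong to either.

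The 2 start sites in RefSeq, at 84683011 for Abcg5 and 84683121 for Abcg8, leave 109 bases between them (GRCm38.p6, chr17:84683012-84683120, plus strand, 5′ to 3′). This stretch is shown because it is upstream of both RefSeq starts. The deposited coordinates begin Abcg8 at 84676302, and by them the stretch lies inside that gene. Capitals mark matches to AGATAA, a core bound by GATA factors, which read TTATCT on this strand.
Abcg5-Abcg8: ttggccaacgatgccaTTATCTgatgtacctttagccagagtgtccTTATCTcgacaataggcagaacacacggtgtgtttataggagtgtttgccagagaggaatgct
The stretch holds 2 matches, and the promoter windows of both genes, which overlap, hold these and 1 more inside Abcg5. AGATAA was chosen after the sequence was seen. It is in 11.2% of all promoter windows, and 35 windows (0.107%) hold 3 or more. The stretch also holds TATAAA on the opposite strand, which reads TTTATA on the strand shown. Of all windows, 13.6% hold TATAAA on either strand.

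Abcb4 and Atp8b1 act on the lipids of the canalicular membrane. Abcb4 releases phosphatidylcholine into bile, and Atp8b1 moves phosphatidylserine to the inner leaflet. Abcb4 (chromosome 5, 8893717 to 8959231) was at 34.4 and 31.5 FPKM in the knockout pools and at 22.0 and 29.0 FPKM in the WT pools. The knockout pools lay above the WT pools, but the nearest pair, 31.5 and 29.0, was closer than the WT pools were to each other. Its log2 fold change of 0.38 (SE 0.17, 95% confidence interval -0.06 to 0.82) did not pass (limma adjusted p = 0.232). Atp8b1 (chromosome 18, 64528979 to 64661000) was at 6.35 and 7.68 FPKM in the knockout pools and at 6.04 and 5.12 FPKM in the WT pools. These groups also stood apart by less than the spread within them, with a log2 fold change of 0.30 (SE 0.15, -0.09 to 0.70, adjusted p = 0.268). Neither gene passed in any of the 17 alternatives.

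Abcc2 and Abcb1a export conjugates and drugs at the canaliculus. Abcc2, which carries glucuronide and glutathione conjugates and bilirubin glucuronides (chromosome 19, 43782192 to 43840740), was at 91.7 and 102.7 FPKM in the knockout pools and at 79.7 and 149 FPKM in the WT pools. Both knockout pools lay between the WT pools, which differed by 1.87-fold, a wider WT spread than in all but 5.99% of tested genes. Its log2 fold change of -0.17 (SE 0.32) had a 95% confidence interval of -1.01 to 0.68 and did not pass (limma adjusted p = 0.768), so no difference was detectable at this spread. The value depended on both WT pools: the log2 fold change was 0.28 without WT replicate 2 and -0.62 without WT replicate 1. It passed in 0 of the 17 alternatives. By FPKM, Abcc2 was also the highest of the canalicular exporter genes in every pool. It made up 38.1% and 41.2% of the summed FPKM of these 6 genes in the knockout pools and 49.1% and 62.4% in the WT pools. These shares depend on the gene lengths behind FPKM. Abcb4, 1 of the 6, was scaled by 9383 bases, much more than the length of its longest transcript.

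Abcb1a encodes a P-glycoprotein, a pump of hydrophobic drugs and other foreign compounds (ENSMUSG00000040584, chromosome 5, 8660077 to 8748575, plus strand). It was measured at 1.72 and 1.501 FPKM in the knockout pools and at 5.16 and 5.06 FPKM in the WT pools, on 168, 141, 478 and 436 reads in that order. The groups were far apart, and the knockout mean was 0.315 of the WT mean. Abcb1a fell by 1.41 on the log2 scale (SE 0.13, 95% confidence interval -1.75 to -1.07, limma adjusted p = 0.0265), and 97.5% of tested genes had a larger (less negative) log2 fold change. Leaving out a library gave a log2 fold change of -1.49 to -1.34. The call was then lost, in fits with 1 residual degree of freedom that lost most calls of the whole table. The adjusted p ran from 0.0101 to 0.103 over all alternatives.

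The reads of Abcb1a could not be assigned with full certainty. Of the 50-base windows of its longest transcript, 18.6% are identical in transcripts of other genes, mostly its paralog Abcb1b, and 10.1% of its exonic bases overlap the antisense gene Gm42686. Abcb1b, which lies beside it, was at 0.906 and 0.642 FPKM in the knockout pools and at 0.1999 and 2.00 FPKM in the WT pools. Its mean was under 1 FPKM, so it was not tested, and its WT pools differed by about 10-fold. Summed over both paralogs, the level was 2.63 and 2.14 FPKM in the knockout pools and 5.36 and 7.06 FPKM in the WT pools. The groups stayed apart, with a log2 fold change of -1.21 (limma adjusted p = 0.0438), a sum chosen after seeing the data. Abcb1a is also expressed by endothelial and blood cells. The 10 sinusoidal endothelial markers summed to 67.1 and 71.7 FPKM in the knockout pools and to 95.4 and 89.8 FPKM in the WT pools, with 0 of 10 past the limma test (4 at an unadjusted p under 0.05, and 0 with limma voom). The 10 neutrophil markers summed to 39.2 and 34.8 FPKM in the knockout pools and to 118.5 and 179 FPKM in the WT pools, with 4 of 7 tested members lower. Over all 11900 tested genes 3.14% were called lower, and 3226 had an unadjusted p under 0.05. None of either list was at 0 in all libraries. Their part in the fall of Abcb1a was not tested.

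Abcc3 and Abcc4 export conjugates across the basolateral membrane into blood, the glucuronide of acetaminophen being a known substrate of Abcc3. Abcc3 (chromosome 11, 94343295 to 94392997) was at 77.8 and 79.1 FPKM in the knockout pools and at 71.4 and 60.0 FPKM in the WT pools. The knockout pools lay above both WT pools by less than the WT pools differed, and the log2 fold change of 0.26 (SE 0.13, 95% confidence interval -0.09 to 0.61) did not pass (limma adjusted p = 0.280). Abcc4, which exports bile salts with glutathione and cyclic nucleotides (chromosome 14, 118482692 to 118706219), was at 13.1 and 9.56 FPKM in the knockout pools and at 5.80 and 3.28 FPKM in the WT pools. The groups did not overlap, but pools of a group differed by 1.37-fold in the knockout and 1.76-fold in WT. Its log2 fold change of 1.26 (SE 0.30, 0.47 to 2.05) exceeded those of Abcb11 and Abcg5 in size and did not pass (adjusted p = 0.0858). It passed with the replicate block (0.0399) and with limma voom on recovered reads (0.0476), in a range of 0.0399 to 0.248 over the alternatives. A difference between basolateral and canalicular exporters was not tested.

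Slc10a1, the sodium-dependent carrier that takes conjugated bile salts up from blood (chromosome 12, 80953183 to 80968705), was at 216 and 143 FPKM in the knockout pools and at 76.0 and 100.3 FPKM in the WT pools. The knockout pools were both above the WT pools and differed from each other by 1.52-fold, wider than in all but 12.3% of tested genes. The knockout mean was 2.03-fold the WT mean, close to the 2.12-fold of Abcb11. With the wider spread, the log2 fold change of 1.00 (SE 0.26, 95% confidence interval 0.31 to 1.69) did not pass (limma adjusted p = 0.101). It lay between 0.70 and 1.30 in the alternatives and between 0.0473 and 0.272 in adjusted p, and passed in 1 of the 17.

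**Figure D2:**
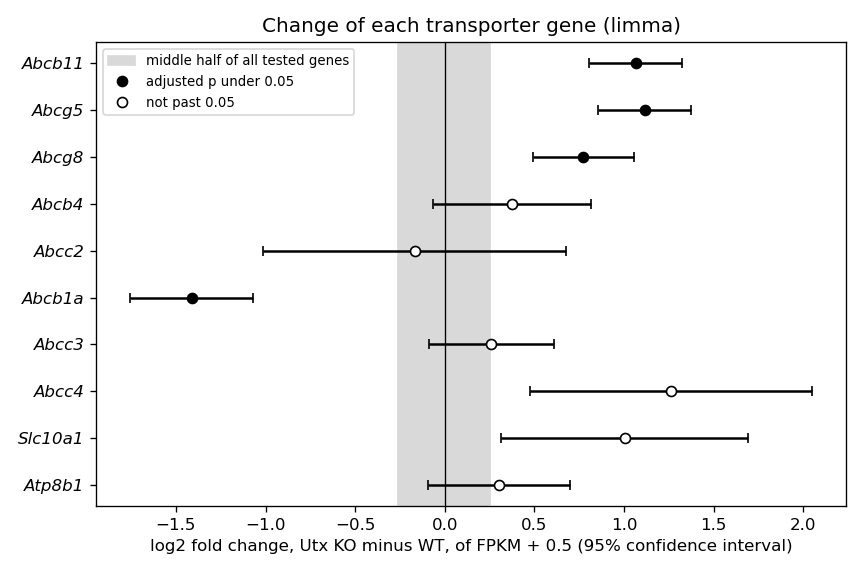
Log2 fold change of FPKM + 0.5 for each transporter gene, Utx knockout minus WT, with the 95% confidence interval from limma; filled points have an adjusted p under 0.05, open points do not, and the grey band spans the quartiles of all 11900 tested genes (-0.26 to 0.25). Abcb11, Abcg5 and Abcg8 lie to the right of the band and Abcb1a to its left, while Abcc4 and Slc10a1 have similar or larger sizes than these 3 with wide intervals.

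The order of the 10 FPKM levels also differed between the groups. In the knockout pools Slc10a1 was first at 179 ± 52.1 FPKM (SD, n = 2 pools), ahead of Abcc2 at 97.2 ± 7.83, Abcc3 at 78.5 ± 0.900, Abcg5 at 49.8 ± 0.684, Abcb11 at 34.5 ± 0.628 and Abcb4 at 32.95 ± 2.10. Below them came Abcg8 at 28.9 ± 1.93, Abcc4 at 11.3 ± 2.50, Atp8b1 at 7.02 ± 0.941 and Abcb1a at 1.61 ± 0.155. Among these neighbours only Abcb11 and Abcb4 had overlapping ranges. In the WT pools Abcc2 was first at 114 ± 49.05 FPKM and overlapped Slc10a1 at 88.2 ± 17.2. Abcc3 followed at 65.7 ± 8.09, then Abcb4 at 25.5 ± 4.92, whose range held that of Abcg5 at 22.7 ± 0.0319. Abcg8 at 16.7 ± 0.0807 and Abcb11 at 16.2 ± 0.395 did not overlap, and Atp8b1 at 5.58 ± 0.649, Abcb1a at 5.11 ± 0.0701 and Abcc4 at 4.54 ± 1.78 overlapped one another. Abcb11 ranked 5 in the knockout pools and 7 in WT, and Abcc4 ranked 8 and 10. Ranks of genes with overlapping ranges carry no order. All ranks also depend on the gene lengths behind FPKM. Abcb4 was scaled by 9383 bases, while its longest transcript, with 4030 overlapping windows of 50 bases, is much shorter. Its place is therefore uncertain, and that of its neighbours with it.

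Ratios of paired genes within a pool do not depend on the library total. The ratio of Abcg5 to Abcg8, the partners of 1 heterodimer, was 1.83 and 1.63 in the knockout pools and 1.36 and 1.37 in the WT pools. The pools did not overlap, so the 2 transcripts were less evenly matched in the knockout, by 0.34 on the log2 scale. The ratio of Abcb11 to Abcb4, bile salt pump to phospholipid pump, was 1.02 and 1.08 in the knockout pools and 0.725 and 0.570 in the WT pools. By FPKM this ratio was above 1 in both knockout pools and below 1 in both WT pools, a difference of 0.71 on the log2 scale. Whether a ratio exceeds 1 depends on the gene lengths behind FPKM. Abcb4 was scaled by 9383 bases, while its longest transcript, with 4030 overlapping windows of 50 bases, is much shorter. The ratio thus does not rank the 2 genes, and only its difference between the groups is read. The ratio of Abcb11 to Slc10a1, canalicular export to basolateral uptake, was 0.162 and 0.239 in the knockout pools and 0.210 and 0.165 in the WT pools, and the groups overlapped. The ratios of Abcb4 to Atp8b1 (5.42 and 4.10 in the knockout, 3.64 and 5.65 in WT) and of Abcc2 to Abcc3 (1.18 and 1.30 in the knockout, 1.11 and 2.48 in WT) overlapped as well. With 2 pools against 2, an exact two-sided permutation test cannot go below p = 0.33, and the 5 ratios are given as a description with no test.

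**Figure D3:**
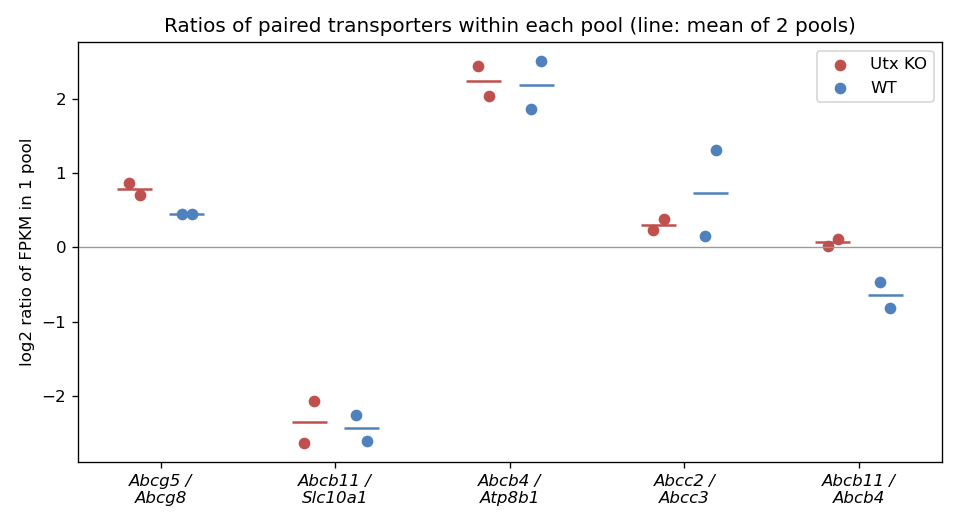
Log2 ratio of the FPKM of 2 transporter genes in each pool, Utx knockout in red on the left and WT in blue on the right of each pair; points are pools and lines are means of 2 pools. The knockout pools lie above the WT pools for Abcg5 to Abcg8 and for Abcb11 to Abcb4, and the groups overlap for the other pairs.

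Other membrane transporters of hepatocytes gave no call. Of 24 genes in this list 18 were tested with limma, 0 passed, and 9 had an unadjusted p under 0.05. Among all 11900 tested genes 4.74% passed, and 3226 genes had an unadjusted p under 0.05. With limma voom on recovered reads 2 were higher and 1 lower, and with FPKM rescaled to equal summed reads 1 was higher. The median log2 fold change was 0.15. Slco1b2 and Scarb1 were among the 3 with the highest levels. Slco1b2, an uptake carrier of bile acids and drugs, was at 65.5 and 66.4 FPKM in the knockout pools and at 22.0 and 39.2 FPKM in the WT pools (adjusted p = 0.0941). Scarb1, a receptor for high-density lipoprotein, was at 18.5 and 19.9 FPKM in the knockout pools and at 29.5 and 27.6 FPKM in the WT pools (adjusted p = 0.0611). Both knockout pools were above both WT pools for Slco1b2 and below them for Scarb1, without passing. Slc51a, a subunit of the basolateral bile salt exporter of the intestine, was listed at 0 in every library.

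The genes that anchor or recycle canalicular transporters gave no call either. All 20 were tested with limma, 0 passed, 10 had an unadjusted p under 0.05, and 1 was higher and 2 lower with limma voom. For comparison, 4.74% of all 11900 tested genes passed limma, and 3226 had an unadjusted p under 0.05. The median log2 fold change was -0.08. Slc9a3r1, a scaffold of the apical membrane, was at 65.1 and 59.1 FPKM in the knockout pools and at 70.4 and 64.5 FPKM in the WT pools. Ap2m1, a subunit of the clathrin adaptor of endocytosis, was at 54.9 and 51.7 FPKM in the knockout pools and at 35.97 and 36.8 FPKM in the WT pools (adjusted p = 0.0608). Hax1, which binds the bile salt pump, was at 39.5 and 44.0 FPKM in the knockout pools and at 39.2 and 37.3 FPKM in the WT pools. The groups overlapped for Slc9a3r1 and stood apart for Ap2m1, and for Hax1 they were apart by less than the spread within them.

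Of the regulators of transporter and bile acid genes, 5 of 19 tested rose, 0 fell and 14 did not pass, and the median log2 fold change was 0.50. Across all tested genes 1.60% rose and 3.14% fell. Nr1i2, the pregnane X receptor that senses foreign compounds, was at 27.97 and 27.2 FPKM in the knockout pools and at 10.5 and 12.7 FPKM in the WT pools (log2 fold change 1.22, limma adjusted p = 0.0313). Nr1i3, the constitutive androstane receptor, was at 20.6 and 22.0 FPKM in the knockout pools and at 7.32 and 10.2 FPKM in the WT pools (1.25, adjusted p = 0.0426). Nr0b2, a corepressor induced by the farnesoid X receptor, was at 7.73 and 9.64 FPKM in the knockout pools and at 3.50 and 4.04 FPKM in the WT pools (1.10, adjusted p = 0.0419). These 3 rose, with no overlap between the groups. Esr1, an estrogen receptor, and Ahr, which binds dioxins, rose by 1.27 and 1.26 on the log2 scale (adjusted p = 0.0375 and 0.0426). Nr1h4 itself, named after its values were seen, was at 51.4 and 41.4 FPKM in the knockout pools and at 23.4 and 26.2 FPKM in the WT pools and did not pass (log2 fold change 0.88, adjusted p = 0.0528). The 3 regulators with the highest levels, Hnf4a, Rxra and Nr1h3, did not pass, with log2 fold changes of 0.25, 0.53 and 0.19.

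Bile acid synthesis and conjugation enzymes moved in both directions: of 16 tested, 3 rose, 1 fell and 12 did not pass (median log2 fold change 0.36). The shares over all tested genes were 1.60% higher and 3.14% lower. Cyp7a1, the rate-limiting enzyme of the classic route, was at 35.8 and 17.5 FPKM in the knockout pools and at 2.22 and 2.77 FPKM in the WT pools (limma adjusted p = 0.0323). Cyp7b1 and Akr1d1 also rose, by 2.34 and 1.63 on the log2 scale (adjusted p = 0.0258 for each), and Cyp8b1, which directs synthesis toward cholic acid, fell by 0.91 (adjusted p = 0.0315). Scp2, Slc27a2 and Slc27a5 had the highest levels of the list and did not pass, with log2 fold changes of 0.33, 0.03 and 0.10.

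NRF2, encoded by Nfe2l2, is a transcription factor of the response to electrophiles, and Abcc2, Abcc3 and Abcc4 are among its known targets. Of 18 other NRF2 target genes, all tested, 2 rose, 1 fell and 15 did not pass (median log2 fold change 0.16). Beside this, 1.60% of all tested genes rose and 3.14% fell. Slc7a11, the cystine carrier, was at 7.51 and 7.53 FPKM in the knockout pools and at 2.68 and 1.56 FPKM in the WT pools (limma adjusted p = 0.0422). Ces1g, a carboxylesterase, also rose (log2 fold change 1.28, adjusted p = 0.0498). Osgin1, an oxidative stress response gene, was at 210.5 and 188 FPKM in the knockout pools and at 629.9 and 877 FPKM in the WT pools, and it fell (adjusted p = 0.0315). Members of the list thus moved both ways. Srxn1 and Gclc, which with Osgin1 had the highest levels of the list, did not pass, with log2 fold changes of -0.16 and -0.50.

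**Figure D4:**
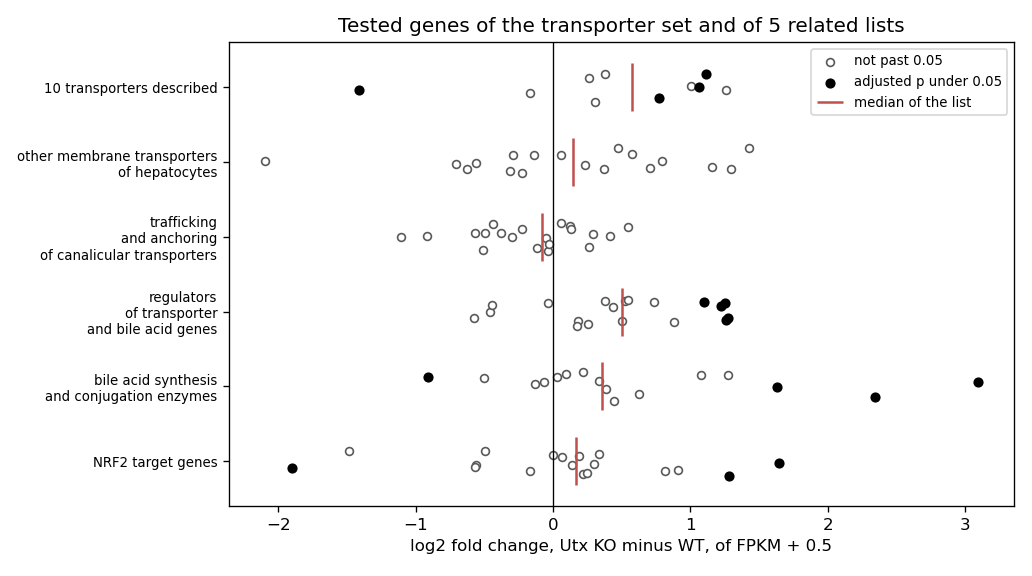
Log2 fold change of FPKM + 0.5, Utx knockout minus WT, for the tested genes of the transporter set (top row) and of 5 related lists; each point is a gene, filled where its limma adjusted p is under 0.05, and the red line is the list's median. The medians run from -0.08 for trafficking genes to 0.57 for the transporters, and the lists of other transporters and of trafficking genes hold no filled point.

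Markers of the cell types of liver were read beside these values. The 12 hepatocyte markers summed to 45527 and 35239 FPKM in the knockout pools and to 39958 and 49293 FPKM in the WT pools. They gave 0 calls with limma, 0 at an unadjusted p under 0.05 and 0 with limma voom, with a median log2 fold change of 0.01. The share called among all 11900 tested genes was 4.74%, and 3226 had an unadjusted p under 0.05. Of 10 cholangiocyte markers 6 were under 1 FPKM in every library, Krt19 and Krt7 among them, and Sox9 was the 1 of 4 tested that fell, at 3.40 and 2.85 FPKM in the knockout pools and 13.9 and 11.1 FPKM in the WT pools. That list summed to 43.6 and 21.2 FPKM in the knockout pools and to 267 and 104 FPKM in the WT pools, most of it Spp1. Kupffer cell and stellate cell markers gave 0 calls among 10 and 8 tested with limma (0 and 3 at an unadjusted p under 0.05, 0 and 0 with limma voom), and all 8 lymphocyte markers had means under 1 FPKM. The neutrophil markers that fell were S100a8, S100a9, Mmp9 and Clec4d. The part of these cells in the changes of the transporters was not tested.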

How the data were processed

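The authors deposited 1 table of FPKM, with gene length, position and biotype per gene, per the file headers. The submitters' processing notes name HISAT2 2.0.5 and the builds mm10 and GRCm38.p6. The sources used here do not name the counter, the annotation release or the strand setting. Columns were matched to samples by genotype and replicate number, and 0 were left out. FPKM times gene length gave whole reads for 100% of values above 0, within 0.01 read. The deposited FPKM imply library totals of 0.943 to 1.05 times these reads.

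Tests used limma 3.58.1 in R 4.3.3 (lmFit, eBayes with trend, two-sided) on log2(FPKM + 0.5) of the 11900 genes whose mean reached 1 FPKM, with 2 residual and 2.59 prior degrees of freedom, and Benjamini-Hochberg adjustment over all of them. Tested on simulated data, the fit gave a share of false calls above the nominal threshold. Fold changes on this scale understate low genes. Exon overlap and shared windows came from GENCODE M21 on GRCm38, in which 99% of identifiers were found. Promoters came from RefSeq (GRCm38.p6), which matched 8 of the 10 genes in 11 windows. Of the motifs searched on both strands, AGGTCA was in 3 of these windows (16.3% of all), TGACNNNGC in 4 (12.4%), TATAAA in 3 (13.6%), CCAAT in 4 (37.4%), GGGCGG in 2 (35.7%) and AGGTCA repeated after 4 open bases in 0 (0.0152%). Abcc3 and Atp8b1 had no window.

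The members and lists were chosen with earlier results of these data known, so their counts are not independent evidence. Named were all members, Kdm6a, Abcb1b, list genes past the threshold, the 3 highest-level genes of each list and markers past the threshold. A gene that this rule names is not reported here. Alternatives were 15 planned and 2 added after seeing the data. Replicate numbers were not taken as pairs, since the labels do not say what they share. Figures used matplotlib 3.10.9 under Python 3.11.15.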

Additional observations from a re-analysis of the deposited data

How the results depend on the processing

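Of the 4 transporter calls, 4 were kept with either other pseudocount, with FPKM rescaled to equal summed reads, with quantile normalization and with protein-coding genes alone. Rescaling by the median ratio of each library to the geometric mean of all could hardly change them, since its factor was 1.003 in every library. Limma without a trend kept 3, without Abcg8 (adjusted p = 0.0597), and a mean of at least 5 FPKM kept 3, since Abcb1a was then not tested. Without a filter on low values 0 transporters, 0 list genes and 0 of all 26643 genes passed limma, and 4388 had an unadjusted p under 0.05. Each left-out library also gave 0 transporter calls. The whole table then had between 0 and 234 calls and the lists between 0 and 4, where all 4 libraries gave 564 and 12. Such fits have 1 residual degree of freedom and assume that the lone pool of a group varies like the pools of the other. Without WT replicate 2, where the whole table had 0 calls, 2662 genes had an unadjusted p under 0.05.

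Over all tested genes the count was 280 with limma without a trend, 1105 with limma voom and 1014 with protein-coding genes alone. The list genes gave 7, 22 and 21 calls in these settings. With the replicate number as a block the whole table had 310 calls, and the transporters again 4, with Abcc4 in and Abcg8 out. Deviations of same-numbered pools correlated at r = -0.14 across 11900 genes. A crossed block, added after seeing the data, gave 552 calls, 5 of them transporters.

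The log2 fold change of Abcc2 was 0.28 without WT replicate 2 and -0.62 without WT replicate 1, so its direction was not stable. The other 9 transporters kept their directions in every alternative that tested them. Their groups did not overlap, so neither leaving out a pool nor another pseudocount could reverse them. The filters, the trend setting and the blocks leave a log2 fold change as it is. Leaving out a library moved the log2 ratio difference to between 0.26 and 0.42 for Abcg5 to Abcg8, 0.53 and 0.88 for Abcb11 to Abcb4, -0.20 and 0.36 for Abcb11 to Slc10a1, -0.26 and 0.37 for Abcb4 to Atp8b1, and -1.01 and 0.15 for Abcc2 to Abcc3. Causes were not tested.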
